A study of Mus musculus with 18 samples.

Results

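Organoids grown from the distal part of the mouse colon were compared with organoids from its middle part, both kept in differentiation medium, in a study of regional identity of the colon and of nicotinic acid made by gut microbes. The comparison takes 6 of the 18 libraries of the study, 3 distal and 3 mid. Its members are the 11150 genes, of 56748 in the deposited table, that reached an FPKM (fragments per kilobase of gene, scaled to a size for each library) of at least 1 in at least 3 of these 6 libraries, and 9900 of them are protein-coding. In all, 24036 genes had a read in at least 1 of the 6 libraries. The labels name no allele, transgene or drug for any group, and state neither the strain nor the age of the mice, nor how many mice gave the cultures. Differentiation medium was applied 3 days after passaging, as was the control medium (ENR with Wnt3a-conditioned medium), in which organoids proliferate. The libraries of distal and mid organoids in control medium (3 each) and of proximal organoids (3 in each medium) are used below as further levels. They also enter the fit that gives the spread for each test. Organoids of this kind are cultures of epithelium, so the muscle, nerves, vessels and immune cells of the colon are not part of the model.

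The colon epithelium absorbs salt, water and short-chain fatty acids, and its regions differ in which transporters do so. Along the gut, position is marked by Hox genes, transcription factors whose clusters are expressed in order from head to tail, with the last members of each cluster, the group 13 genes, in the hindgut. Differentiation replaces dividing crypt cells by surface colonocytes, goblet cells and hormone-secreting enteroendocrine cells.

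The 6 libraries held 12827751 to 18772528 reads in distal and 17869841 to 19938198 reads in mid organoids, as recovered from the FPKM. Reads over the library size behind the FPKM came to 1.32, 1.13 and 1.08 in distal libraries, and to 1.17, 1.13 and 1.21 in mid libraries. A higher ratio raises the FPKM of a library relative to its depth, most of all in distal library 1. Mitochondrial genes held 4.96% ± 0.851 of the reads in distal and 4.56% ± 0.346 in mid libraries (SD, n = 3 each; exact two-sided permutation p = 0.5, where 3 against 3 cannot go below 0.1). Pearson correlations of log2(FPKM + 1) between libraries were 0.958 to 0.987 within a group and 0.958 to 0.979 between distal and mid, so on this measure the groups hardly stood apart. The labelled tissue was checked on its markers: 34 of 34 surface colonocyte genes and 20 of 22 goblet genes passed the filter, against 0 of 16 immune and endothelial, 0 of 13 neural and muscle, 0 of 15 tuft cell and 1 of 14 fibroblast genes. The summed level of the fibroblast list was 2.30 to 12.2 FPKM in distal and 2.71 to 3.88 FPKM in mid libraries, and 6 of its 14 genes had 0 reads in all 6. The immune and endothelial list summed to 0.159 to 0.378 FPKM in distal and 0.316 to 0.786 FPKM in mid libraries, with 8 of 16 genes at 0 reads.

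Distal and mid organoids differed in 96 genes, which is 0.861% of the genes tested (limma on log2(FPKM + 1), Benjamini-Hochberg adjusted p under 0.05). Of these, 31 were higher in distal organoids (0.278%) and 65 lower (0.583%). The leading genes higher in distal organoids were the position gene Hoxd13, the calcium transport genes S100g and Trpv6, the sodium pump regulator Fxyd4 and the membrane linker Rdx. The leading genes lower in distal organoids were Sptssb and Fabp2, which act on lipids, the sodium-proton exchanger Slc9a3 with its partner Chp2, the peptide hormone guanylin (Guca2a) and the adrenergic receptor Adra2a. Fold changes below are distal over mid on the log2(FPKM + 1) scale with the standard error (SE) of the fit. This scale understates the change of genes with low values. The gene lists below were written with earlier results of these data known, and some genes are in several lists. No test was run on a list as a whole, so the shares called are descriptions only.

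Of the 96 genes, 19 were higher and 36 lower by at least 2-fold on that scale, and the median over all tested genes was 0.0025. In all 96 the 3 distal libraries lay wholly above or wholly below the 3 mid libraries, which was the case for 12.4% of all tested genes (5.62% with distal above and 6.82% with distal below mid). The 96 genes were called by a test on these same libraries, and the leading genes were also chosen to have no overlap. The absence of overlap is therefore not a further result in either set. Distal library 3 was the distal library closest to the mid mean in 41 of the 96 genes, and mid library 3 the mid library closest to the distal mean in 44. The count of called genes was 145 without distal library 3, 52 without mid library 1 and 58 without mid library 2. It was 49 with log2(FPKM + 0.1), 175 with no filter on low values, 50 with a filter of FPKM 5, 63 with limma-voom on the recovered reads and 19 with only these 6 libraries in the fit. In bulk libraries, fewer cells of a type and less RNA per cell cannot be told apart, and since the labels do not say whether the 3 libraries of a group come from separate animals or cultures, the p-values measure only the spread between these samples.

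**Figure D1:**
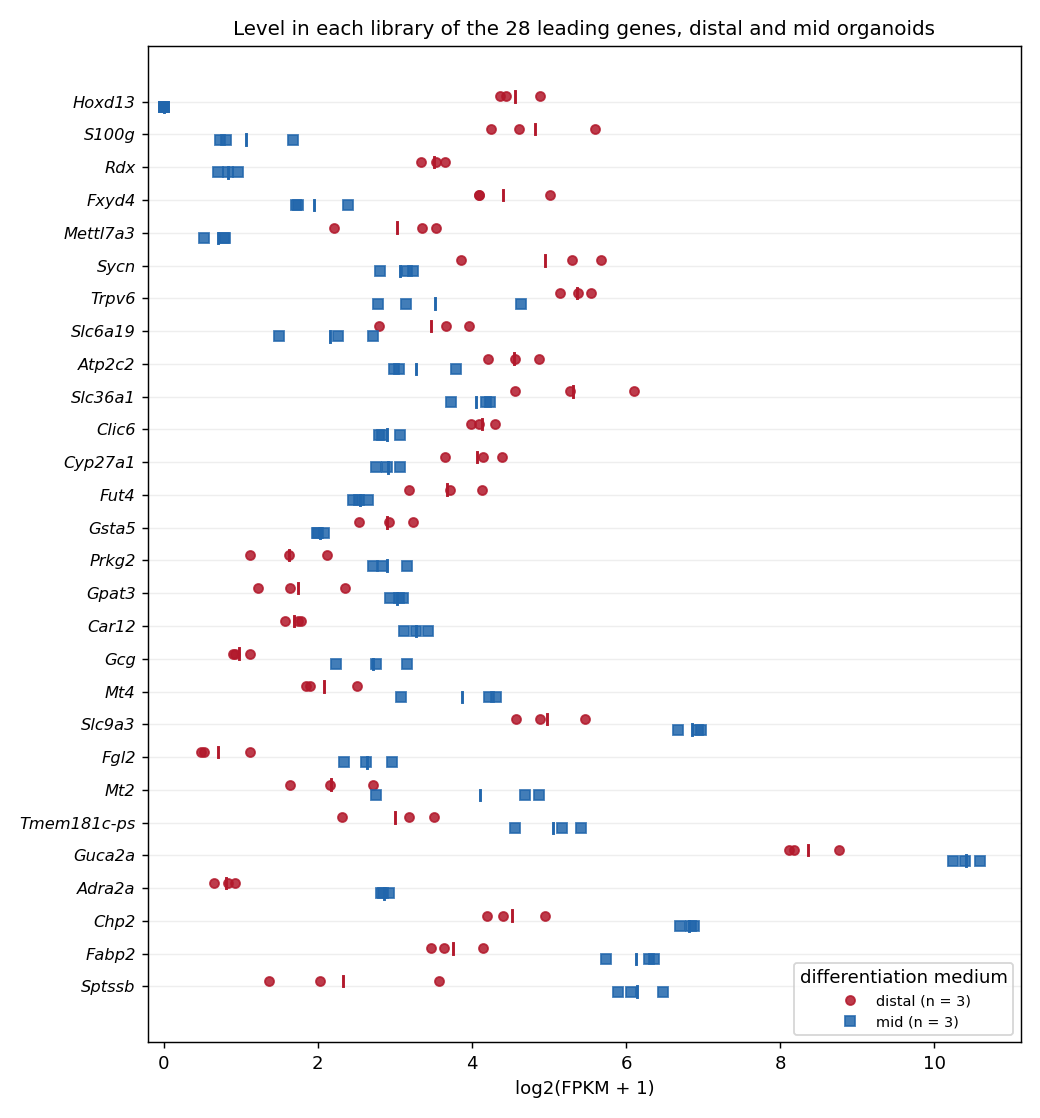
Level of the 28 leading genes in each library as log2(FPKM + 1), with red circles for the 3 distal and blue squares for the 3 mid libraries in differentiation medium, and a vertical tick for the mean of each group. The 14 upper genes were higher and the 14 lower genes lower in distal organoids. In each gene the circles and squares do not overlap, which the rule for choosing these genes required.

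Hoxd13 (ENSMUSG00000001819, mm39 chr2:74498654-74501943, + strand), a transcription factor at the 5′ end of the Hoxd cluster, was the gene with the largest difference. It stood at 19.6, 28.5 and 20.7 FPKM in the distal libraries, against 0, 0 and 0 FPKM in the mid libraries, where not a single read was recovered. All distal libraries therefore lay above all mid libraries. Set against a floor of 3 reads over the mid group, the level in distal organoids was at least 905-fold higher, and the fitted difference was 4.56 ± 0.165 (limma, Benjamini-Hochberg adjusted p = 2.18e-10). Proximal organoids in differentiation medium had 0 reads of it as well.

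The neighbours of Hoxd13 in the cluster followed at much lower levels. Hoxd10 had 0, 0.699 and 0.438 FPKM in distal libraries, against 0 in each mid library. Hoxd9, Hoxd11 and Hoxd12 averaged 0.133 ± 0.0960, 0.165 ± 0.122 and 0.0270 ± 0.0287 FPKM in distal organoids (SD, n = 3), also against 0 reads in mid organoids. Evx2, the homeobox gene just beyond Hoxd13, had 0.197, 0.462 and 0.328 FPKM in the distal libraries, against 0 in the mid libraries, and is named after its values were seen. These 5 genes did not pass the filter of the comparison. Fitted without a filter, Evx2 was called (0.41 ± 0.0699, adjusted p = 0.0144, limma), while Hoxd9, Hoxd10, Hoxd11 and Hoxd12 had adjusted p of 0.579, 0.222, 0.232 and 0.755. Lnpk, an endoplasmic reticulum gene on the other side of Evx2 and 88875 bases from Hoxd13, was higher in distal organoids (2.55, 2.34 and 2.47 FPKM, against 1.12, 0.911 and 1.15 FPKM in mid libraries; 0.75 ± 0.110, adjusted p = 0.00285, limma).

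Hoxd13 was the only posterior Hox gene called. Of the 16 genes of paralogue groups 9 to 13, 6 passed the filter, 1 was called (16.7%, beside 0.861% of all tested genes) and the median difference was 0.036. Hoxb13, the group 13 gene of another cluster, had 219, 193 and 132 FPKM in distal libraries, against 124, 111 and 110.4 FPKM in mid libraries. All 3 distal values were above the mid values, yet the difference did not pass the test (0.62 ± 0.172, adjusted p = 0.138, limma); without distal library 3 it did (0.83, adjusted p = 0.0134), which makes 2 called posterior Hox genes. Hoxa13 was at 52.1 ± 2.28 FPKM in distal and 53.3 ± 2.10 FPKM in mid organoids (SD, n = 3 each; -0.033 ± 0.0874, SE). Hoxa9, Hoxa10 and Hoxb9 differed by 0.027 ± 0.169, 0.045 ± 0.137 and -0.29 ± 0.211 (SE), none of them called. Hoxa13, Hoxb13 and Hoxa10 were at 0 FPKM in all proximal libraries in differentiation medium, whereas Hoxb9 stood at 51.8 ± 5.18 FPKM there. Hoxa11 was below the filter (0.495 ± 0.455 FPKM in distal and 0.639 ± 0.169 FPKM in mid organoids), and the 5 Hoxc genes of these groups had 0 reads in the 6 libraries. Of the 23 genes of groups 1 to 8, 4 were tested and none was called.

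**Figure D2:**
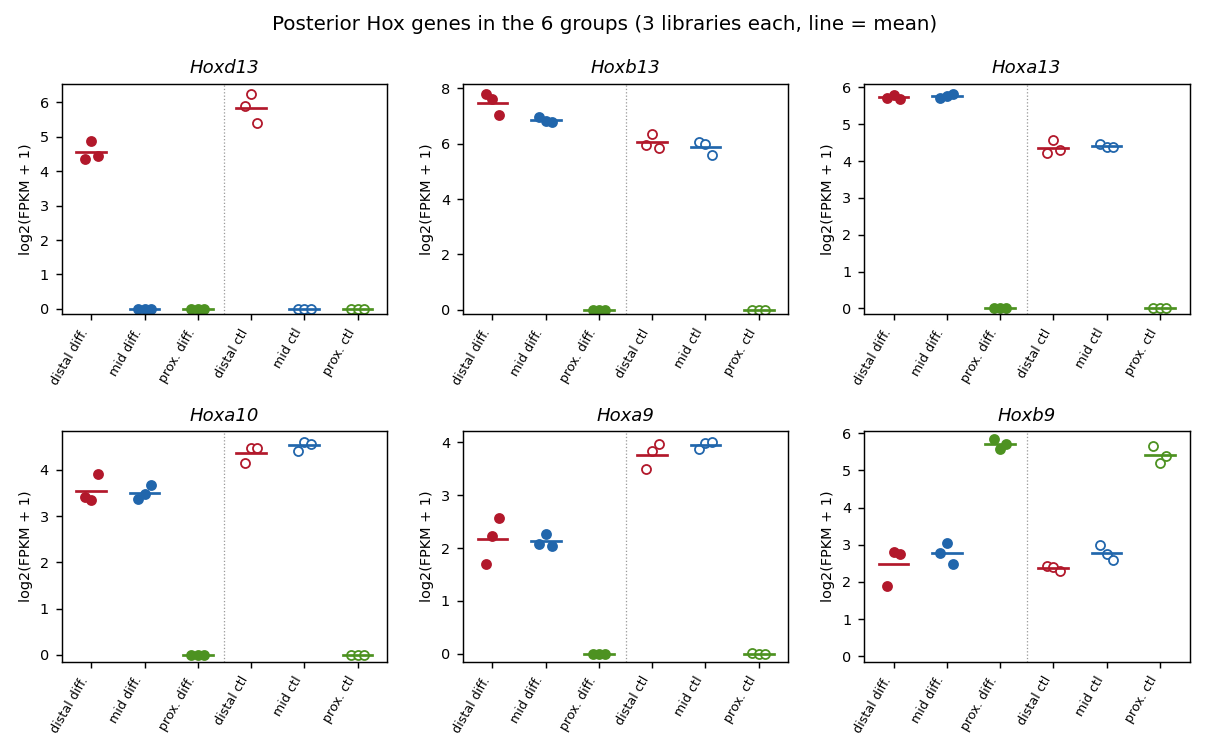
Level of 6 posterior Hox genes as log2(FPKM + 1) in all 18 libraries, by region and medium (filled points for differentiation, open points for control medium, lines for the mean of 3 libraries). Hoxd13 is read in the distal libraries and is at 0 in every mid and proximal library, while Hoxa13 and Hoxb13 are read in distal and mid but not in proximal libraries.

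S100g, Trpv6 and Atp2c2, genes of calcium handling, were higher in distal organoids. In the transcellular route, calcium enters through the apical channel Trpv6, is carried by the binding protein calbindin-D9k (S100g) and leaves through pumps of the basolateral membrane, and the vitamin D receptor Vdr is a known regulator of the first steps. Both S100g and Trpv6 rose. S100g (mm39 chrX:161744988-161747595, - strand) had 47.2, 23.4 and 17.9 FPKM in distal libraries, against 2.19, 0.653 and 0.758 FPKM in mid libraries (24.6-fold on the means). Every distal library was above every mid library, with distal library 1 the highest. The difference was 3.74 ± 0.438 (adjusted p = 4.23e-04, limma).

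Trpv6 (mm39 chr6:41597558-41613339, - strand) had 45.7, 34.5 and 40.7 FPKM in distal libraries, against 5.88, 7.84 and 24.0 FPKM in mid libraries. Mid library 3 stood well above the other mid libraries and closest to the distal ones. The difference of 1.84 ± 0.319 passed the test (adjusted p = 0.00876, limma), but not without mid library 2 (log2 1.65, adjusted p = 0.0584). In all, the call of Trpv6 was lost under 4 of 16 alternative settings. Both genes were low in proximal organoids in differentiation medium, at 0.677 ± 0.260 FPKM for S100g and 0.00676 ± 0.0117 FPKM for Trpv6 (SD, n = 3). Atp2c2, a calcium and manganese pump of the secretory pathway, was also higher (22.6, 28.2 and 17.6 FPKM in distal libraries, against 12.9, 7.28 and 6.92 FPKM in mid libraries; 1.27 ± 0.251, adjusted p = 0.0230). Its call was lost without distal library 1, distal library 2, mid library 2 or mid library 3 (log2 1.11 to 1.26, adjusted p of 0.0699 to 0.121). Vdr was not called, with 132 ± 21.9 FPKM in distal and 131 ± 13.7 FPKM in mid organoids, nor was Atp2b1, a basolateral calcium pump, with 96.9 ± 7.85 FPKM in distal and 94.5 ± 12.7 FPKM in mid organoids (SD, n = 3 each; adjusted p = 0.999 and 0.991).

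The 250 bases before the transcription start of S100g and Trpv6, with those of Fabp2, are given 5′ to 3′ on the gene's strand from RefSeq on GRCm38.p6, a build other than that of the files. Capitals mark AGGTCA (core letters bound by many nuclear receptors), CAAAGTCCA (letters bound by Hnf4 factors) or CAATAAA (letters bound by Cdx and group 13 Hox factors) on either strand, so that TGACCT and TTTATTG are reverse complements. Windows of 12 leading or abundant genes were read, and these 3 are printed because they are the ones that held a motif. The windows of the other 9, Hoxd13, Fxyd4, Rdx, Sptssb, Guca2a, Slc9a3, Chp2, Adra2a and Gcg, held none. None of the motifs overlapped another in the windows printed.
S100g (chrX:162964600-162964849, - strand): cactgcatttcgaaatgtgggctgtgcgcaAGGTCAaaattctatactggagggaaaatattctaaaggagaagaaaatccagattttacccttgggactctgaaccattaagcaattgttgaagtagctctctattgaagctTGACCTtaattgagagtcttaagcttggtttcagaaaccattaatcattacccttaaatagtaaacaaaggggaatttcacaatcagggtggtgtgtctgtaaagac
Trpv6 (chr6:41636406-41636655, - strand): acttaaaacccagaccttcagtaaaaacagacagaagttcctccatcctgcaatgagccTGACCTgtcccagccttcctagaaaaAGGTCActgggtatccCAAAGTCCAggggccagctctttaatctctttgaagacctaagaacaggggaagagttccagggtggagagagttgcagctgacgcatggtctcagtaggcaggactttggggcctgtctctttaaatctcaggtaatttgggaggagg
Fabp2 (chr3:122894822-122895071, + strand): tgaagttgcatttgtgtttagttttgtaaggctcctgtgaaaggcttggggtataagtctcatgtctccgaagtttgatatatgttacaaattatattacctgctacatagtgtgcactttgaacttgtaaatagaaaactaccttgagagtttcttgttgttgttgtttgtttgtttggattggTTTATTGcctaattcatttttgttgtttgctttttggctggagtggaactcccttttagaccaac
In S100g, AGGTCA lay 214 and 101 bases before the start, in Trpv6 185 and 159 bases before it, and CAAAGTCCA 140 bases before the start of Trpv6. In Fabp2, CAATAAA lay 58 bases before the start. Windows of this length were found for 19 of the 31 genes higher in distal organoids, 46 of the 65 lower ones and 8196 tested genes. AGGTCA was in 21.05% of the 19, in 8.696% of the 46 and in 12.76% of the tested genes, CAATAAA in 0%, 2.174% and 3.062% of the same sets, and CAAAGTCCA in 5.263%, 0% and 0.5124%. For AGGTCA the shares of the called genes rest on 4 of the 19 and 4 of the 46. The CAATAAA share is 1 of the 46, Fabp2, and the CAAAGTCCA share 1 of the 19, Trpv6, both printed above. A match of letters is a description of the window, and binding was not measured.

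The sodium-proton exchanger Slc9a3 and its partner Chp2 were lower in distal organoids. Slc9a3, the apical exchanger NHE3 that takes up sodium against protons (mm39 chr13:74269576-74317561, + strand), had 43.1, 28.4 and 22.8 FPKM in distal libraries, against 121, 101 and 125 FPKM in mid libraries. The groups were far apart, and the mid mean was 3.68 times the distal mean (-1.89 ± 0.324, adjusted p = 0.00826, limma). Chp2, a calcineurin-like protein that binds exchangers of this family, had 30.0, 17.3 and 20.2 FPKM in distal libraries, against 114, 103 and 118 FPKM in mid libraries (-2.29 ± 0.327, adjusted p = 0.00221). The related exchanger Slc9a2 was not called (104 ± 6.54 FPKM in distal and 141 ± 12.5 FPKM in mid organoids; -0.44 ± 0.294, adjusted p = 0.812). The level of Slc9a3 and Chp2 in proximal organoids, 4.09 ± 1.56 and 34.0 ± 9.07 FPKM (SD, n = 3), lay below the mid level, so the mid mean of both genes was the highest of the 3 regions.

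Guanylin and a kinase of its pathway were lower in distal organoids as well. Guca2a, which encodes the peptide guanylin that acts on the receptor guanylate cyclase C (mm39 chr4:119494901-119496668, + strand), was among the most abundant called genes. It had 289, 436 and 277 FPKM in distal libraries, against 1541, 1207 and 1356 FPKM in mid libraries. The distal libraries reached at most 436 FPKM and the mid libraries at least 1207 FPKM (-2.05 ± 0.312, adjusted p = 0.00326, limma). Prkg2, the cGMP-dependent kinase downstream of that receptor, had 2.09, 1.18 and 3.33 FPKM in distal libraries, against 5.55, 6.13 and 7.89 FPKM in mid libraries (-1.28 ± 0.269, adjusted p = 0.0337). The call of Prkg2 was lost without distal library 1, distal library 2, mid library 1, mid library 2 or mid library 3 (log2 -1.03 to -1.37, adjusted p of 0.0811 to 0.140). The receptor gene Gucy2c had 67.9 ± 13.1 FPKM in distal and 88.4 ± 11.8 FPKM in mid organoids and was not called (adjusted p = 0.863), and neither was the second ligand gene Guca2b (3.51 ± 1.92 and 6.26 ± 1.67 FPKM in distal and mid organoids, adjusted p = 0.609).

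Other genes of ion transport moved in either direction. Fxyd4, a small membrane protein that tunes the sodium pump, had 31.2, 16.1 and 16.1 FPKM in distal libraries, against 2.28, 2.34 and 4.24 FPKM in mid libraries (2.45 ± 0.235, adjusted p = 5.43e-05, limma), with no overlap. Clic6, of the chloride intracellular channel family, was at 16.6 ± 1.98 FPKM in distal and 6.48 ± 0.788 FPKM in mid organoids (SD, n = 3 each; 1.23 ± 0.101, adjusted p = 8.05e-06). Car12, a membrane carbonic anhydrase, was lower (1.97, 2.43 and 2.34 FPKM in distal libraries, against 7.65, 8.68 and 9.80 FPKM in mid libraries; -1.58 ± 0.235, adjusted p = 0.00286). Slc4a2, an anion exchanger, and Kcnk6, a potassium leak channel, were named after their values were seen: they differed by -0.65 ± 0.128 and -0.69 ± 0.102 (SE; adjusted p = 0.0221 and 0.00285). Slc4a2 was not called without distal library 1, distal library 3, mid library 1 or mid library 2 (log2 -0.59 to -0.64, adjusted p of 0.0561 to 0.125), and had 21.7 ± 2.60 FPKM in distal and 34.6 ± 3.06 FPKM in mid organoids.

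The alpha subunit of the epithelial sodium channel, Scnn1a, was not called, at 58.8 ± 10.2 FPKM in distal and 55.8 ± 7.37 FPKM in mid organoids (adjusted p = 0.973). Its gamma subunit, Scnn1g, had 0.723, 2.55 and 2.35 FPKM in distal libraries, against 0.0877, 0.231 and 0.466 FPKM in mid libraries, all distal values being higher. It did not pass the filter; fitted without one, it was called (1.13 ± 0.195, adjusted p = 0.0147, limma), and the beta subunit Scnn1b was not (0.525 ± 0.336 FPKM in distal and 0.111 ± 0.0343 FPKM in mid organoids, adjusted p = 0.226). Of 44 genes in the list of ion channels, pumps and water channels, 36 were tested, with 2 higher (Fxyd4, Trpv6), 2 lower (Slc9a3, Car12), 32 not called and a median of 0.040, beside 0.0025 over all tested genes. That is 11.1% called, beside 0.861% of all tested genes. The list holds the water channel Aqp8, at 4089.9 ± 2012 FPKM in distal and 3078 ± 955 FPKM in mid organoids, and the water channel Aqp4, at 8.11 ± 7.68 and 32.2 ± 10.5 FPKM, neither of them called (adjusted p = 0.894 and 0.0783). Aqp4 was called without distal library 2 (-2.85, adjusted p = 0.0105).

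**Figure D3:**
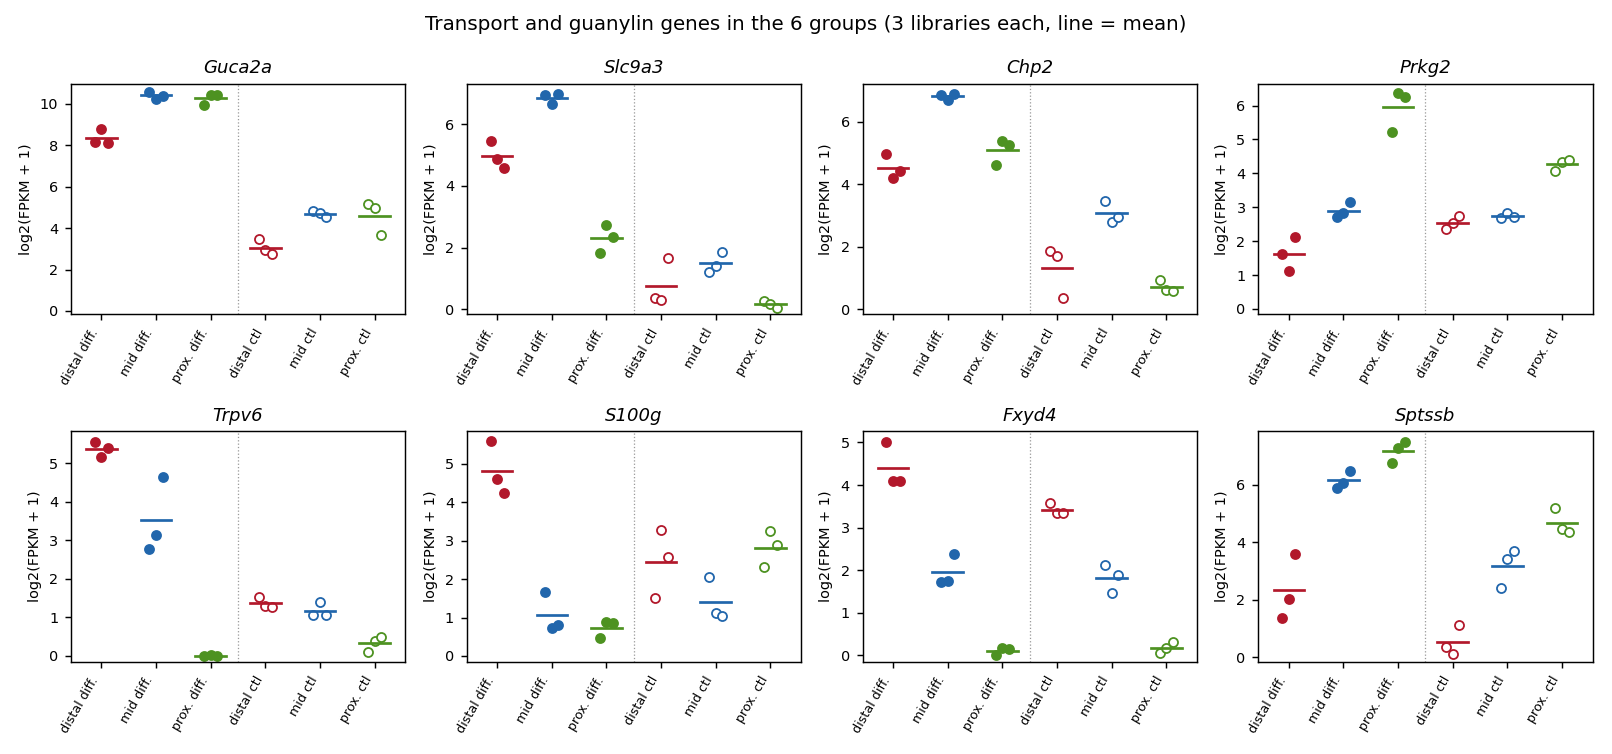
Level of 8 genes of transport, guanylin signalling and lipid synthesis as log2(FPKM + 1) in all 18 libraries, by region and medium (filled points for differentiation, open points for control medium, lines for the mean of 3 libraries). In differentiation medium the distal libraries are below the mid ones for Guca2a, Slc9a3, Chp2, Prkg2 and Sptssb and above them for Trpv6, S100g and Fxyd4, and the axes differ between panels.

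Adra2a, the alpha-2A adrenergic receptor, was lower in distal organoids with little spread (mm39 chr19:54032582-54037413, + strand). It had 0.895, 0.788 and 0.569 FPKM in distal libraries, against 6.58, 6.19 and 6.04 FPKM in mid libraries, a difference of -2.06 ± 0.119 (adjusted p = 7.36e-08, limma). In control medium the gene was barely read in either region, at 0.0587 ± 0.0264 FPKM in distal and 0.184 ± 0.0652 FPKM in mid organoids (SD, n = 3 each). The distal mean was the lower there too, and at such levels the log2(FPKM + 1) scale understates the difference. The distal minus mid difference in differentiation medium, less that in control medium, was -1.90 ± 0.168 (interaction, adjusted p = 9.40e-05, limma). The interaction was not called with log2(FPKM + 0.1) (-2.10, adjusted p = 0.322) or with limma-voom on the recovered reads (-1.51, adjusted p = 1).

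Sptssb, Fabp2 and Gpat3, which act on lipids, were lower in distal organoids. Sptssb, a small subunit that sets which fatty acids serine palmitoyltransferase uses to start sphingolipids (mm39 chr3:69726875-69767273, - strand), had 1.58, 3.08 and 10.9 FPKM in distal libraries, against 58.4, 65.9 and 88.0 FPKM in mid libraries. The highest distal library, library 3, was far below the lowest mid library (-3.82 ± 0.468, adjusted p = 6.28e-04, limma). The level in proximal organoids was 146 ± 36.7 FPKM, above both (SD, n = 3). The other subunits measured were not called: Sptlc1 had 23.8 ± 1.88 FPKM in distal and 25.4 ± 1.17 FPKM in mid organoids, Sptlc2 36.0 ± 2.32 and 37.9 ± 0.737 FPKM, and Sptssa 52.3 ± 9.73 and 47.8 ± 4.11 FPKM, with adjusted p of 0.947, 0.957 and 0.954. Further down the sphingolipid route, the ceramide synthase Cers6 and the ceramidase Acer1, both named after their values were seen, differed by -0.69 ± 0.119 and -0.66 ± 0.145 (SE; adjusted p = 0.00820 and 0.0452). Cers6 was lost without mid library 1 (log2 -0.59, adjusted p = 0.0563) and Acer1 without distal library 1, distal library 3, mid library 1, mid library 2 or mid library 3 (log2 -0.55 to -0.71, adjusted p of 0.0910 to 0.200).

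Fabp2, the intestinal fatty acid binding protein whose promoter is given above, had 11.4, 10.1 and 16.6 FPKM in distal libraries, against 81.0, 52.7 and 77.7 FPKM in mid libraries. All distal values were below all mid values (-2.39 ± 0.293, adjusted p = 6.28e-04, limma), and the proximal level was higher still, at 173 ± 62.4 FPKM. Gpat3, which starts the synthesis of glycerolipids, was lower (4.09, 2.11 and 1.34 FPKM in distal libraries, against 7.29, 6.68 and 7.58 FPKM in mid libraries; -1.29 ± 0.223, adjusted p = 0.00849). The call of Gpat3 was lost under 3 of 16 alternative settings. Of 37 PPAR target, fatty acid oxidation and ketogenesis genes 31 were tested, 0 were higher, 2 were lower, among them Fabp2, and the median was -0.080, with 1 called gene without mid library 1. The 2 called genes are 6.45% of the list, beside 0.861% of all tested genes. Of 25 tested cholesterol synthesis and uptake genes none was called (median -0.073), which is near the share of all tested genes.

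The amino acid carriers Slc6a19, Slc6a20a and Slc36a1 were higher in distal organoids. Slc6a19, the apical carrier of neutral amino acids, had 11.7, 14.6 and 5.93 FPKM in distal libraries, against 3.79, 1.82 and 5.55 FPKM in mid libraries, and distal library 3 lay just above mid library 3. The difference of 1.32 ± 0.278 passed the test (adjusted p = 0.0338, limma), and was lost without distal library 1, distal library 2, mid library 1 or mid library 2 (log2 0.99 to 1.37, adjusted p of 0.1 to 0.160). Slc6a20a, a carrier of proline and related imino acids, had 3.103, 1.88 and 1.13 FPKM in distal libraries, against 0.305, 0.399 and 0.549 FPKM in mid libraries (1.05 ± 0.173, adjusted p = 0.00612). Slc36a1, a proton-coupled amino acid carrier, had 67.8, 37.5 and 22.6 FPKM in distal libraries, against 17.1, 17.9 and 12.2 FPKM in mid libraries (1.26 ± 0.262, adjusted p = 0.0314). Its call was lost without distal library 1, distal library 2, mid library 1, mid library 2 or mid library 3 (log2 0.87 to 1.36, adjusted p of 0.0540 to 0.139). Not all amino acid carriers had the higher mean in distal organoids. Slc6a14 had 60.5 ± 34.0 FPKM in distal and 138 ± 21.7 FPKM in mid organoids and was not called (-1.32 ± 0.345, adjusted p = 0.109, limma). Among 38 brush border hydrolases and nutrient transporters, 24 were tested, 2 were higher (Slc6a19 and Slc6a20a), 0 were lower and the median was 0.021. That is 8.33% called, beside 0.861% of all tested genes. The number called in this list was 1 without distal library 1, mid library 1 or mid library 2.

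Enzymes of glycan metabolism were called in both directions. Fut4, a fucosyltransferase, had 16.5, 12.2 and 8.06 FPKM in distal libraries, against 4.49, 4.82 and 5.30 FPKM in mid libraries (1.13 ± 0.206, adjusted p = 0.0128, limma), and was not called without distal library 1, distal library 2, mid library 1 or mid library 2 (log2 0.90 to 1.12, adjusted p of 0.0506 to 0.0760). B4galnt1, which builds gangliosides, was lower at 4.77, 6.91 and 10.6 FPKM in distal libraries, against 16.7, 21.5 and 13.5 FPKM in mid libraries (-1.15 ± 0.209, adjusted p = 0.0126), with the call lost without mid library 1 or mid library 2 (log2 -0.98 to -1.16, adjusted p of 0.0562 to 0.0774). Mgat4c, a glycosyltransferase by name and one of the most abundant called genes, had 41.1, 42.6 and 39.6 FPKM in distal libraries, against 86.8, 86.0 and 82.7 FPKM in mid libraries (-1.03 ± 0.150, adjusted p = 0.00256). Of 23 glycosyltransferase and sulfation genes, 20 were tested, 1 was higher, 1 was lower and the median was -0.069. That is 10% called, beside 0.861% of all tested genes. The number called there was 1 without distal library 2 and 0 without mid library 1 or mid library 2. Cyp27a1, a mitochondrial sterol hydroxylase, was higher at 16.1 ± 4.23 FPKM in distal and 6.52 ± 0.823 FPKM in mid organoids (SD, n = 3 each; 1.15 ± 0.186, adjusted p = 0.00563).

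Of 56 xenobiotic metabolism genes 42 were tested, and 1 was called: Fmo5, a flavin monooxygenase, with 14.99, 15.7 and 14.6 FPKM in distal libraries, against 30.5, 27.5 and 24.8 FPKM in mid libraries (-0.82 ± 0.153, adjusted p = 0.0143, limma). Its call was lost without mid library 1 or mid library 2 (log2 -0.75 to -0.82, adjusted p of 0.0618 to 0.0925), the list then holding 0 called genes, and 2 genes of the list were called without distal library 2. The list median was -0.086, and 2.38% of its tested genes were called, beside 0.861% of all tested genes. Gsta5, a glutathione transferase outside that list, was higher (6.61 ± 1.82 FPKM in distal and 3.06 ± 0.135 FPKM in mid organoids; 0.88 ± 0.195, adjusted p = 0.0488). The call was lost without distal library 1, distal library 3, mid library 1, mid library 2 or mid library 3 (log2 0.71 to 0.90, adjusted p of 0.113 to 0.168). Gsta5 has close relatives in the genome, as do Mettl7a3 and the pseudogene Tmem181c-ps below, and the labels do not say how reads shared by such copies were counted.

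Rdx, radixin, links the plasma membrane to actin (mm39 chr9:51958473-52011763, + strand). It had 10.6, 11.5 and 9.14 FPKM in distal libraries, against 0.943, 0.782 and 0.628 FPKM in mid libraries, with little spread within either group (2.68 ± 0.108, adjusted p = 5.86e-10, limma). Its relatives were not called: Ezr, the main member of the family in gut epithelium, had 523 ± 145 FPKM in distal and 445 ± 62.3 FPKM in mid organoids, and Msn 2.19 ± 2.28 and 3.27 ± 1.18 FPKM (SD, n = 3 each; adjusted p = 0.906 and 0.874). Sycn, a protein first known from zymogen granules of the pancreas, had 50.2, 38.4 and 13.5 FPKM in distal libraries, against 8.38, 7.89 and 5.997 FPKM in mid libraries (1.88 ± 0.345, adjusted p = 0.0128). The call of Sycn was lost without distal library 1, distal library 2 or mid library 3 (log2 1.52 to 1.76, adjusted p of 0.0543 to 0.0682). Mettl7a3, a methyltransferase-like gene, had 9.23, 10.6 and 3.64 FPKM in distal libraries, against 0.437, 0.721 and 0.734 FPKM in mid libraries (2.33 ± 0.260, adjusted p = 2.89e-04).

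The metallothioneins Mt2 and Mt4, small proteins that bind zinc and copper, were lower in distal organoids but varied within the mid group. Mt2 had 2.10, 5.55 and 3.45 FPKM in distal libraries, against 24.9, 28.2 and 5.77 FPKM in mid libraries, and Mt4 2.59, 4.71 and 2.73 FPKM in distal libraries, against 17.6, 18.9 and 7.46 FPKM in mid libraries. In both genes mid library 3 was well below the other mid libraries and close to the distal values. Mt2 passed the test narrowly (-1.94 ± 0.431, adjusted p = 0.0483, limma) and was lost without distal library 1, distal library 3, mid library 1 or mid library 2 (log2 -1.56 to -1.93, adjusted p of 0.0826 to 0.237). Mt4 (-1.79 ± 0.342, adjusted p = 0.0184) was lost without distal library 1, distal library 3, mid library 1 or mid library 2 (log2 -1.57 to -1.69, adjusted p of 0.0502 to 0.109). The most abundant family member, Mt1, had 68.5, 259 and 126 FPKM in distal libraries, against 873, 672 and 178 FPKM in mid libraries, and was not called (adjusted p = 0.143), though it was without mid library 3 (-2.54, adjusted p = 0.0122). Mt4 and Mt2 lie 33633 bases apart on chromosome 8.

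Among the remaining leading genes, Fgl2, a fibrinogen-like protein, had 1.17, 0.431 and 0.401 FPKM in distal libraries, against 5.14, 4.06 and 6.77 FPKM in mid libraries (-1.93 ± 0.189, adjusted p = 6.28e-05, limma). Tmem181c-ps had 8.10, 3.97 and 10.4 FPKM in distal libraries, against 22.7, 35.0 and 41.8 FPKM in mid libraries (-2.05 ± 0.311, adjusted p = 0.00326). Ankrd40cl, one of the 6 most abundant called genes, had 23.0, 30.6 and 20.1 FPKM in distal libraries, against 69.9, 50.5 and 49.4 FPKM in mid libraries (-1.18 ± 0.218, adjusted p = 0.0142). All 3 were lower in distal organoids without overlap, and Ankrd40cl was not called without distal library 1 or mid library 1 (log2 -1.02 to -1.14, adjusted p of 0.0540 to 0.0931). S100a8, a subunit of calprotectin, passed at low level with 19 reads in distal and 74 reads in mid organoids (-1.08 ± 0.238, adjusted p = 0.0469), and was lost without distal library 1, distal library 2, mid library 1, mid library 2 or mid library 3 (log2 -0.77 to -1.15, adjusted p of 0.0910 to 0.188). Egr1, an immediate early transcription factor, had 5.07 ± 0.820 FPKM in distal and 9.74 ± 1.22 FPKM in mid organoids (-0.83 ± 0.171, adjusted p = 0.0313), and was lost without distal library 1, distal library 2, mid library 1, mid library 2 or mid library 3 (log2 -0.74 to -0.91, adjusted p of 0.0588 to 0.161).

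Of the hormone-secreting cells, 9 of 23 list genes were tested and their median was -0.64, beside 0.0025 over all tested genes, and 1 of the 9 was above 0 in sign. Of the 9, 11.1% were called, beside 0.861% of all tested genes. Gcg passed the test, the precursor of glucagon-like peptides, which had 1.17, 0.890 and 0.872 FPKM in distal libraries, against 7.90, 5.75 and 3.69 FPKM in mid libraries (-1.73 ± 0.231, adjusted p = 0.00116, limma). The groups did not overlap, and the call was lost under 2 of 15 alternative settings. Insl5, a peptide of colonic endocrine cells, had 3.84, 2.42 and 8.89 FPKM in distal libraries, against 25.4, 14.1 and 8.29 FPKM in mid libraries, and the groups overlapped (adjusted p = 0.0761). It was called without distal library 3 (-1.93, adjusted p = 0.00992) or mid library 3 (-1.87, adjusted p = 0.0248), which gives 2 called genes in the list. Pyy, peptide YY, and Chga, chromogranin A, were not called either (-0.79 ± 0.368 and -0.90 ± 0.262, SE; adjusted p = 0.590 and 0.162). The summed level of the list was 79.9 to 136.4 FPKM in distal and 136.2 to 187 FPKM in mid libraries, and the part of cell number in this difference was not tested.

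Regional marker lists of the colon were read beside the calls. Of 20 proximal colon markers 14 were tested, 0 were higher and 4 lower in distal organoids, among them Sptssb, Slc9a3 and Nxpe4, with a median of -1.16. That is 28.6% called, beside 0.861% of all tested genes, in a list written with earlier results of these data known. Nxpe4, of the neurexophilin-like family, had 22.3, 22.9 and 12.9 FPKM in distal libraries, against 48.1, 31.0 and 43.1 FPKM in mid libraries (-1.05 ± 0.215, adjusted p = 0.0283, limma), and its call was lost without distal library 3, mid library 1 or mid library 3 (log2 -0.80 to -1.001, adjusted p of 0.0691 to 0.160). Not all of these peaked in proximal organoids: Nxpe4 and Slc9a3 averaged 0.0710 ± 0.0205 and 4.09 ± 1.56 FPKM there. Of 20 distal colon markers 14 were tested, 1 was higher (Hoxd13) and 0 were lower, which is 7.14% called, with a median of 0.32. The uncalled genes of this list nearest the threshold had lower means in distal organoids: the hydroxysteroid dehydrogenase gene Hsd3b3 had 6.68 ± 2.55 FPKM in distal and 15.6 ± 1.10 FPKM in mid organoids (-1.17 ± 0.286, adjusted p = 0.0822), and the mucosal pentraxin Mptx1 11.9 ± 0.942 FPKM in distal and 22.9 ± 11.3 FPKM in mid organoids (-0.80 ± 0.206, adjusted p = 0.102). Hoxb13, described above, followed, and then the proton pump Atp12a (339 ± 292 FPKM in distal and 108 ± 9.83 FPKM in mid organoids, adjusted p = 0.346) and the glycosyltransferase B3gnt7 (35.5 ± 18.3 FPKM in distal and 12.6 ± 5.60 FPKM in mid organoids, adjusted p = 0.382), which had the higher mean in distal organoids. Hsd3b3 was called without distal library 1 (-1.40, adjusted p = 0.0451) and with only the 12 mid and distal libraries in the fit (adjusted p = 0.0284). The call count of the proximal list was 2 without mid library 1, and that of the distal list was 2 without distal library 1 or distal library 3.

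Of 34 surface colonocyte genes, 0 were higher and 2 lower (Slc9a3, Guca2a), which is 5.88% called, beside 0.861% of all tested genes, and their median was -0.18. The keratin Krt20, a marker of surface cells, had 848, 544 and 577 FPKM in distal libraries, against 717, 621 and 935 FPKM in mid libraries, and the groups overlapped (-0.21 ± 0.509, adjusted p = 0.982, limma). None of 20 tested goblet genes was called (median -0.23), among them the mucin Muc2 at 20.3 ± 1.36 FPKM in distal and 41.2 ± 11.1 FPKM in mid organoids (adjusted p = 0.383). None of 22 tested proliferation genes was called (median -0.25), nor any of 11 crypt stem cell and Wnt genes (median -0.35), and with 0.861% of all genes called, a count of 0 in lists of this size is near the background. A p that misses the threshold does not show that the levels were equal.

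Intestinal transcription factors other than Hox genes gave no call among 30 tested (median -0.0033). With 0.861% of all tested genes called, this count of 0 is near the background. The caudal factor Cdx2 came closest, with 52.0, 54.7 and 63.9 FPKM in distal libraries, against 108, 113 and 117 FPKM in mid libraries. The groups did not overlap, and the difference of -0.98 ± 0.243 did not pass the test (adjusted p = 0.0857, limma); it did with only these 6 libraries in the fit (adjusted p = 0.0478). Its relative Cdx1 had 131 ± 20.2 FPKM in distal and 122 ± 16.8 FPKM in mid organoids (adjusted p = 0.983). Foxd2, a forkhead transcription factor outside the list, was called (12.2, 10.1 and 7.84 FPKM in distal libraries, against 23.8, 22.9 and 23.3 FPKM in mid libraries; -1.16 ± 0.188, adjusted p = 0.00567), and is named after its values were seen. The gene Foxd2os lies next to it on the other strand, and since the labels do not say whether the libraries kept the strand, reads that run past the end of either gene cannot be told apart.

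Genes of nicotinic acid and NAD metabolism gave no call: 16 of 30 were tested and the median was -0.073. With 0.861% of all tested genes called, a count of 0 among 16 is near the background. Naprt, which starts the synthesis of NAD from nicotinic acid, had 60.3, 35.0 and 26.5 FPKM in distal libraries, against 42.4, 37.6 and 38.9 FPKM in mid libraries (-0.048 ± 0.296, adjusted p = 0.995, limma). Slc5a8, which brings butyrate and nicotinate into colonocytes together with sodium, had 23.0, 47.0 and 15.04 FPKM in distal libraries, against 56.8, 41.4 and 25.3 FPKM in mid libraries, with overlapping groups (-0.60 ± 0.340, adjusted p = 0.722).

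Across all 33 lists with 753 genes, 14 lists held at least 1 called gene, with 18 different genes called, 19 lists held none, and in 3 of these no gene was tested. Besides those above, no gene was called among oxidative phosphorylation (29 tested, median 0.073), mitochondrially encoded (13, -0.013), interferon and antigen presentation (27, -0.093), ER stress (18, 0.070), hypoxia and glycolysis (22, 0.094), fetal-like and injury (19, -0.30) and cell junction, keratin and mucin genes (22, -0.073). Counts of 0 in lists of these sizes are near the share called among all tested genes. Of 20 tested antimicrobial genes 1 was lower, S100a8 (5% called, beside 0.861% of all tested genes), and the median was 0.12.

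**Figure D4:**
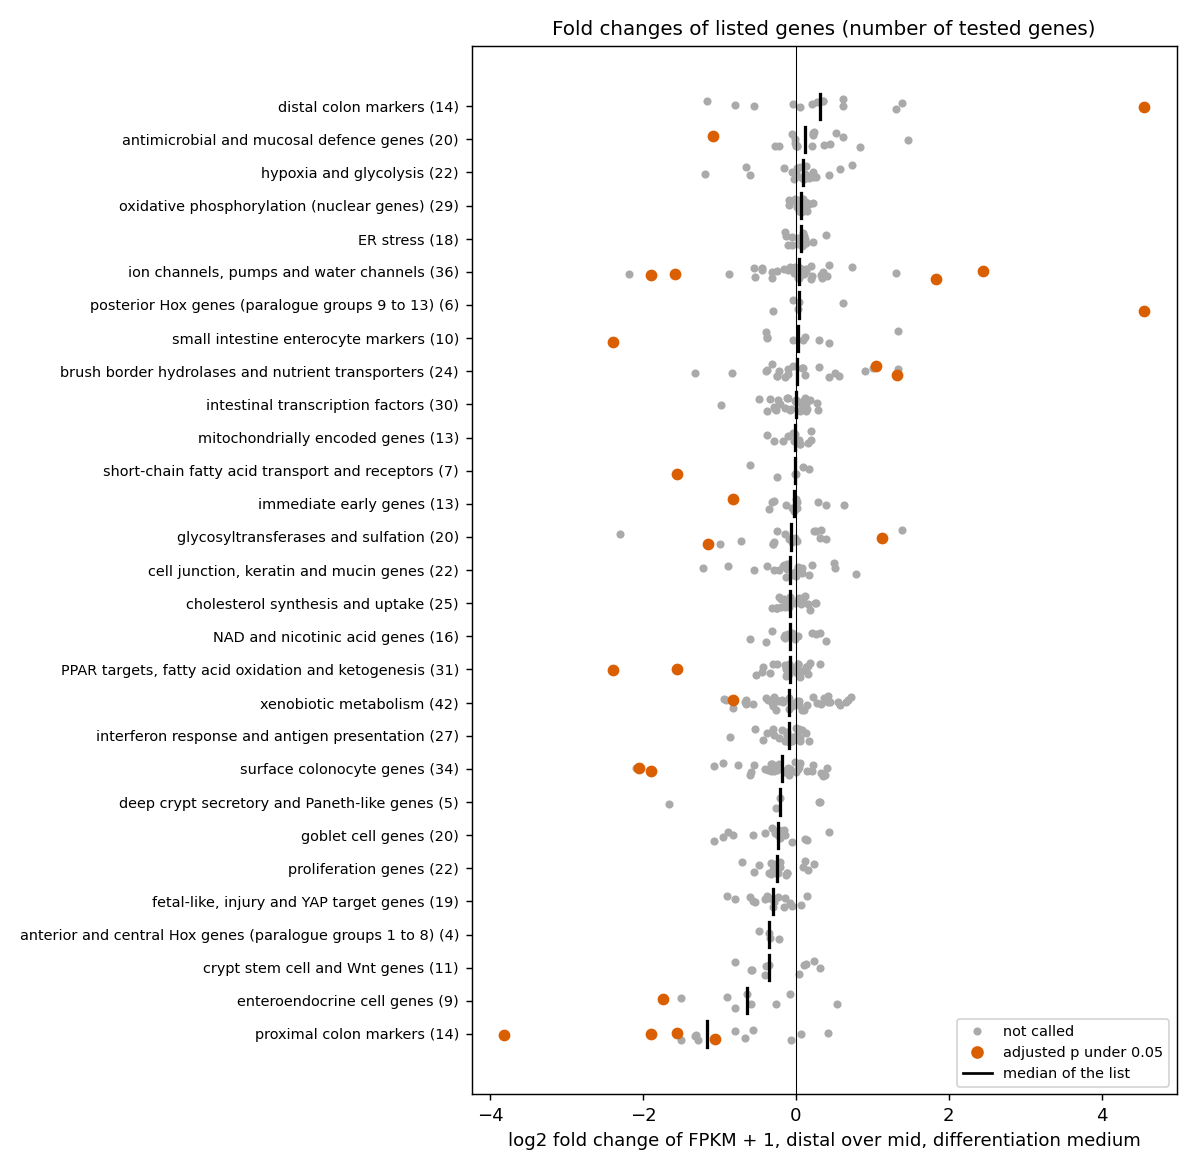
Log2 fold change of FPKM + 1, distal over mid organoids in differentiation medium, for every tested gene of the lists with at least 3 tested genes. Orange points passed the test and grey points did not, and black ticks mark list medians, which run from -1.16 for the proximal colon markers to 0.32 for the distal colon markers.

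The same regional contrast in control medium takes its group means from other libraries. It shares the fit, the residual spread and the tested genes with the main contrast, so its calls are not independent of it. It gave 11 called genes (0.0987%), 5 higher (0.0448%) and 6 lower (0.0538%) in distal organoids. Of these, 9 were called in differentiation medium with the same sign: Hoxd13, Rdx, Fxyd4 and Mettl7a3 higher and Sptssb, Tmem181c-ps, Foxd2, Xlr3b and Zfp704 lower. The other genes were Pros1, an anticoagulant protein S gene that was higher, and Foxd2os, which was lower. Hoxd13 had 58.2, 74.2 and 41.4 FPKM in distal control libraries, against 0 in mid control libraries (at least 2885-fold), and Rdx 15.6, 16.6 and 16.4 FPKM in distal control libraries, against 1.39, 1.19 and 1.59 FPKM in mid control libraries (2.85 ± 0.108, adjusted p = 2.30e-10, limma). Xlr3b, an X-linked gene named after its values were seen, had 0.164, 0.240 and 0 FPKM in distal libraries, against 1.46, 1.89 and 1.25 FPKM in mid libraries in differentiation medium, and 0.261, 0.139 and 0 FPKM in distal, against 1.08, 1.59 and 1.84 FPKM in mid libraries in control medium. The count in control medium was 39 without distal control library 3, and 7 without distal control library 1 or mid control library 3.

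Of the 96 genes called in differentiation medium, 87 (90.6%) had the same sign in control medium, beside 57.3% of all tested genes. The median difference of the 31 higher genes was 1.20 in differentiation and 0.35 in control medium, and that of the 65 lower genes was -1.03 and -0.29. These genes were selected by the test in differentiation medium, so smaller medians in control medium do not show that the difference depends on the medium. Several genes that differed in differentiation medium were low in control medium in both regions: Slc9a3 had 0.888 ± 1.09 FPKM in distal control and 1.87 ± 0.691 FPKM in mid control organoids, Trpv6 1.58 ± 0.265 and 1.27 ± 0.327 FPKM, and Slc6a19 0.0989 ± 0.154 and 0.0265 ± 0.00534 FPKM (SD, n = 3 each). Across the 11150 genes the differences in the 2 media correlated with Pearson's r of 0.392 and Spearman's rho of 0.252, where genes are not independent replicates.

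**Figure D5:**
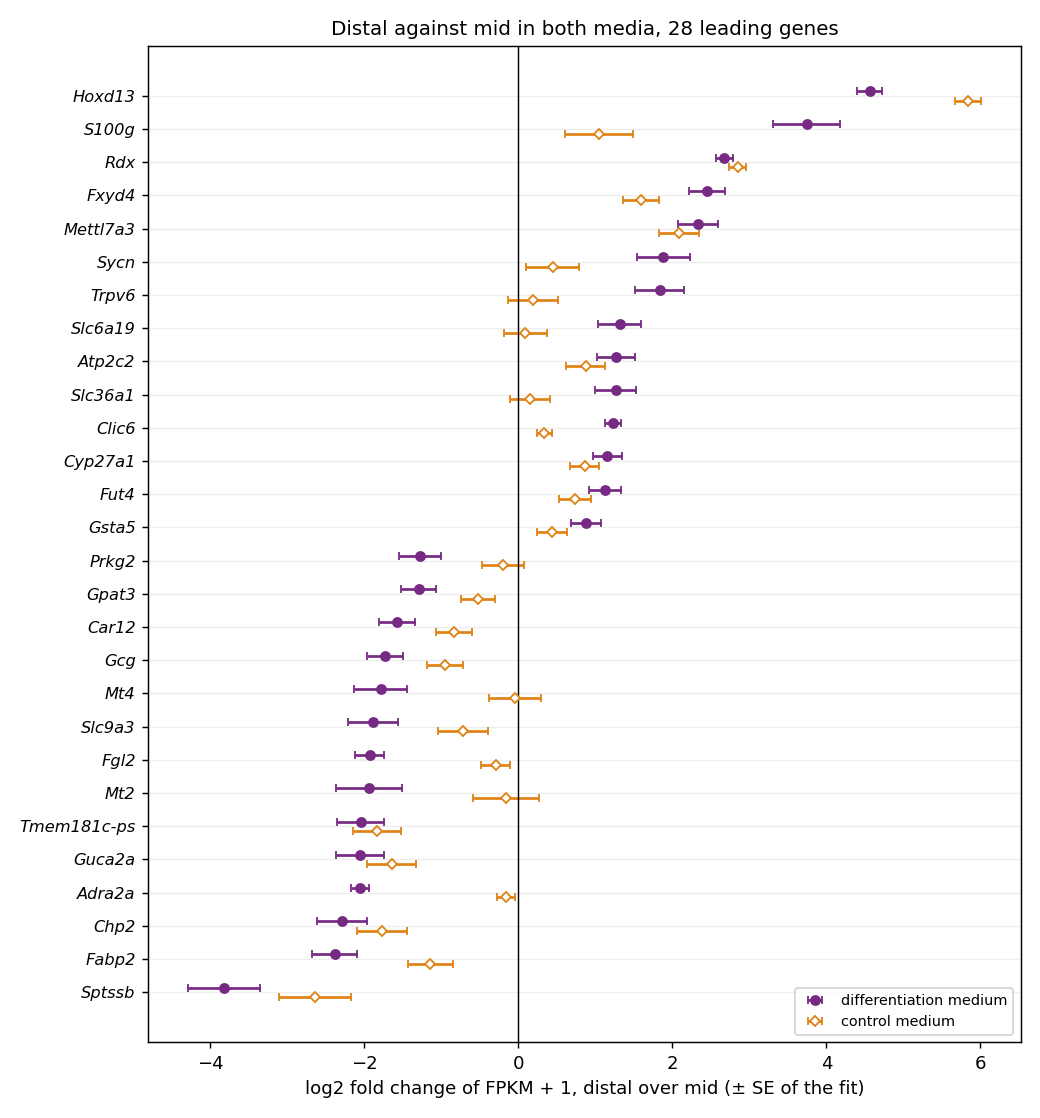
Difference between distal and mid organoids for the 28 leading genes as log2 fold change of FPKM + 1, with filled points for differentiation and open points for control medium and bars for the standard error of the fit. Every point for differentiation medium lies further from 0 than the one for control medium except those of Hoxd13 and Rdx, and the genes were chosen on their values in differentiation medium.

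The test of whether the regional difference depends on the medium called 2 genes (0.0179%), both lower in distal organoids in differentiation medium: Adra2a, described above, and Gramd1b, a lipid transfer protein that falls outside the naming rule. Gramd1b had 1.03, 1.15 and 0.900 FPKM in distal libraries, against 3.61, 2.66 and 3.13 FPKM in mid libraries in differentiation medium, and 1.03, 0.649 and 0.658 FPKM in distal, against 0.698, 0.606 and 0.676 FPKM in mid libraries in control medium. The libraries were apart in differentiation and mixed in control medium, and the interaction was -1.12 ± 0.166 (adjusted p = 0.0342, limma). It was not called with log2(FPKM + 0.1), with limma-voom, with only the 12 mid and distal libraries, or without distal library 2 or 3, mid library 1 or 3, distal control library 1 or any mid control library (adjusted p of 0.0514 to 0.322). The count of 2 was 4 without distal library 1 or distal control library 3, and 1 without distal library 2, distal control library 1 or any mid control library. At an unadjusted p under 0.05 the interaction held 398 genes, the contrast in differentiation medium 933 and that in control medium 572. For the other called genes, a difference that passed in differentiation and not in control medium is therefore not shown to depend on the medium.

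The largest number of called genes on a chromosome was 10 of 563 tested genes on chromosome 3 (1.776%). On the Y chromosome 1 of 6 tested genes was called, the long non-coding RNA gene Gm28588, which is named after its values were seen. It had 3.88, 3.27 and 1.45 FPKM in distal libraries, against 8.57, 8.27 and 7.54 FPKM in mid libraries, without overlap (-1.30 ± 0.219, adjusted p = 0.00759, limma). It was not called with log2(FPKM + 0.1), with limma-voom or with only these 6 libraries in the fit (adjusted p of 0.116 to 0.419). The other Y genes tested, Kdm5d, Uty, Ddx3y, Eif2s3y and Gm29650, overlapped between the groups and were read in all 18 libraries, and Xist, the X-inactivation RNA, was at most 0.00942 FPKM in any library. Eif2s3y, for example, had 26.5, 16.1 and 17.5 FPKM in distal libraries, against 18.4, 17.3 and 21.7 FPKM in mid libraries (adjusted p = 0.991).

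Within 200000 bases of each other lay 3 pairs of called genes, Hoxd13 with Lnpk, Mt4 with Mt2, and Zfp704 with Zbtb10 (141687 bases apart), and the genes of each pair differed in the same direction. Zfp704 and Zbtb10, zinc finger genes named after their values were seen, differed by -0.71 ± 0.137 and -0.80 ± 0.139 (SE; adjusted p = 0.0198 and 0.00876, limma). Zfp704 was lost without distal library 2, mid library 1, mid library 2 or mid library 3 (log2 -0.64 to -0.75, adjusted p of 0.0517 to 0.0877) and Zbtb10 without mid library 1 (log2 -0.74, adjusted p = 0.0589). At the edge of the filter, the third-highest FPKM was 1.00014 in Me3 and 1.00089 in Notch2, which were inside, and 0.999901 in Slc51a and 0.998948 in Rcbtb2, which were outside.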

How the data were processed

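Polyadenylated RNA of 18 organoid libraries was sequenced. Per the submitters' processing notes, which name HISAT2 2.0.5, featureCounts 1.5.0-p3 and mm39, the authors deposited FPKM values for 56748 genes, and the scaling behind these is not stated there. FPKM times gene length gave whole reads within 0.001 for 100% of values. Precision is limited by 3 libraries a group.

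limma 3.58.1 in R 4.3.3 was fitted to log2(FPKM + 1) with 6 group means over all 18 libraries (12 residual degrees of freedom, trended variance), with Benjamini-Hochberg adjustment over 11150 genes and a threshold of 0.05. The code was also run on simulated counts with 200 genes changed in the distal differentiation libraries. These counts had a fixed spread setting and no other group differences, so the run does not give the error rate for these data. Tables were handled in Python 3.11.15 with pandas 2.3.3, numpy 2.4.6, scipy 1.17.1 and matplotlib 3.10.9. Leading genes were the 14 largest called changes in each direction with a mean of at least 5 FPKM in a group, no overlap and no predicted name (60 called genes passed the level, 4 of them with predicted names). Also named were up to 4 called genes of each list, the posterior Hox genes, Naprt, Slc5a8, Krt20 and the 6 most abundant called genes. Uncalled genes of the same pathways, and others marked so in the text, were chosen after their values were seen. Members and lists were chosen with earlier results of these data known. Alternatives were another pseudocount, filters, scalings, sets of libraries, limma-voom, a replicate block and leaving out each library. Some genes that the naming rule selects are not reported here.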

Additional observations from a re-analysis of the deposited data

Results flagged for a closer look

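In 2 genes the difference between distal and mid organoids differed between the media by a test of that difference itself (limma, Benjamini-Hochberg adjusted p of 9.40e-05 and 0.0342). For Adra2a the distal minus mid difference was lower in differentiation than in control medium by a log2 change of -1.90, and for Gramd1b, which lies outside the naming rule and was chosen after its values were seen, by -1.12. Neither was called with log2(FPKM + 0.1) or with limma-voom on the recovered reads. In control medium Adra2a was barely read in either region, with the lower mean in distal organoids. At such levels the log2(FPKM + 1) scale understates the difference.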

How the results depend on the processing

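The 96 calls in differentiation medium became 49 with log2(FPKM + 0.1), 175 with no filter, 50 with a filter of FPKM 5, 19 with only the 6 libraries, 63 with limma-voom and 52 to 145 with a library left out. They were 81 when scaled to summed reads, 102 with TMM factors, 65 with the 12 mid and distal libraries and 118 without a proximal library. The 11 calls in control medium became 7 with log2(FPKM + 0.1), 64 with no filter, 6 with a filter of FPKM 5, 20 when scaled to summed reads, 18 with limma-voom and 7 to 39 with a library left out. The 2 interaction calls became 0 with log2(FPKM + 0.1), 11 with no filter, 1 with a filter of FPKM 5, 4 when scaled to summed reads, 1 with the 12 libraries, 0 with limma-voom and 1 to 4 with a library left out. Fewer libraries or genes enter some of these fits; for the others the cause was not tested.

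With the replicate number as a block the counts were 108 in differentiation medium, 25 in control medium and 2 for the interaction. Deviations of same-numbered distal and mid libraries correlated by 0.107, 0.116 and -0.0222, and not every library correlated best with its own number, so the numbers were not taken as pairs.

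Of the 96 called genes, 13 kept their call under every alternative in which they were tested and 0 changed sign. Among the 28 leading genes, 10 kept it (Adra2a, Car12, Clic6, Fabp2, Fgl2, Fxyd4, Guca2a, Hoxd13, Rdx and S100g), while Mt2 and Gsta5 lost it in 13 each. Slc6a19 lost it in 11, Mt4 and Slc36a1 in 8 each, Atp2c2, Prkg2 and Sycn in 7 each, and Fut4 in 6. Trpv6 lost it in 4, Gpat3 in 3 and Gcg in 2. Chp2, Cyp27a1, Mettl7a3, Slc9a3, Sptssb and Tmem181c-ps lost it in 1 each. The differences of 11 genes that were not called changed sign with a library left out, over the ranges Hoxa9 -0.18 to 0.26, Hoxa10 -0.13 to 0.15, Hoxb9 -0.45 to 0.0012, Naprt -0.37 to 0.21, Cdx1 -0.018 to 0.23, Aqp8 -0.024 to 0.62, Scnn1a -0.044 to 0.21, Vdr -0.12 to 0.11, Atp2b1 -0.027 to 0.15, Ezr -0.0091 to 0.33 and Sptssa -0.030 to 0.19. With TMM factors Vdr was at -0.0025. The mitochondrial share differed by 0.398 percentage points, and by 0.0947 to 0.884 with a library left out, an alternative added after seeing the data. Of 231 list counts recomputed, 195 stayed within 1.5 times, and the largest change was 2 genes. Since 19 of the 33 lists held no called gene, many of these counts began at 0, and their stability says little. With 3 libraries a group, small differences could not be detected.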
